A study of Yarrowia lipolytica with 9 samples.

Results

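The 4 genes described here carry out the last step of triacylglycerol synthesis and the first step of its breakdown in the oleaginous yeast Yarrowia lipolytica. They are DGA1 (YALI0E32769g), DGA2 (YALI0D07986g) and LRO1 (YALI0E16797g), which code for acyltransferases, and TGL4 (YALI0F10010g), which codes for a lipase. They were taken from the 6145 features of the deposited tables by RefSeq accession: XM_504700.1 for DGA1, XM_502557.1 for DGA2, XM_504038.1 for LRO1 and XM_505230.1 for TGL4. The tables hold accessions without names, so the length of each feature was also checked, although any other feature of like length would pass. A length of 1545 bases for DGA1, 1581 for DGA2, 1947 for LRO1 and 2451 for TGL4 came back from count and FPKM, the same in all 9 samples and within 2% of the length stated for the gene when it was chosen, and all 4 were kept. The tables give no genome build, so no coordinates are printed; the systematic identifiers place DGA1 and LRO1 on chromosome E, DGA2 on D and TGL4 on F.

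Triacylglycerol is the storage fat of oleaginous yeasts and fills their lipid bodies. It is made from a glycerol backbone by stepwise acylation, and the last acyl chain is added to diacylglycerol. Dga1 and Dga2 take that chain from acyl-CoA and belong to separate diacylglycerol acyltransferase families, whereas Lro1 takes it from a phospholipid. Tgl4 is an intracellular lipase that releases fatty acids from stored triacylglycerol, and these can then enter beta-oxidation.

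RNA was sequenced from strains Yl_5_2, Yl_5_3 and Yl_5_1 (labelled Y5_2, Y5_3 and ctrl), with 3 samples of each, from flasks shaken at 250 rpm and 28 °C for 96 h. All 3 strains descend from ATCC 201249, which carries mutant alleles of ura3, leu2 and lys8 and a tagged PEX17, and all carry crtE, crtB, crtI and crtY at the rDNA for beta-carotene synthesis. All also carry extra cassettes of Yl-SPT15, the counterpart of the yeast gene for the TATA-binding protein, aimed at the GUT2 locus, so that an altered GUT2 site is shared by the control. By the paper's design the carotene construct brought in Ura3 and the cassette construct Leu2. The paper's liquid medium lacked uracil and leucine. In Yl_5_2 the first cassette bears the change E208A and the fifth bears P25T, A213T and A216V; in Yl_5_3 the second bears F194L; Yl_5_1, the control, has wild-type cassettes only (protein positions count from the initiator methionine). Yl_5_2 and Yl_5_3 are each a single colony, picked for a deeper and a lighter color. The paper does not state how Yl_5_1 was picked. A difference between strains therefore cannot be told apart from other differences between colonies. The labels do not say whether the samples of a strain were separate cultures, and p-values then measure only the spread between these samples.

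The total count per sample lay between 17771507 and 23288547, and each of the 4 genes had between 756 and 15904 counts in every sample. FPKM (count divided by the feature's length and the sample's total) is used to compare genes with each other. The tests between strains used counts scaled by edgeR's TMM method, whose factors lay between 0.952 and 1.05, in a single quasi-likelihood model of all 9 samples. Its p-values were adjusted by Benjamini-Hochberg over the 6037 features tested, and SE stands for the standard error of a log2 fold change. A gene is said to have risen or fallen where the adjusted p was under 0.05. These values give a gene's level relative to the other transcripts of the same sample, and in RNA from whole cultures a change in every cell and a change in some of the cells cannot be told apart.

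DGA1 was by far the most abundant of the 4 genes and DGA2 the least. By FPKM the order DGA1, TGL4, LRO1, DGA2 held in 9 of 9 samples. Over all samples DGA1 averaged 348 FPKM, TGL4 143, LRO1 78.2 and DGA2 28.7, so that DGA2 alone lay below the median feature, which stood at 47.2 FPKM in Yl_5_2, 41 in Yl_5_3 and 45 in Yl_5_1. Of the 6145 features, 92% had a lower mean than DGA1, 79.1% than TGL4, 64.6% than LRO1 and 38.2% than DGA2.

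**Figure D1:**
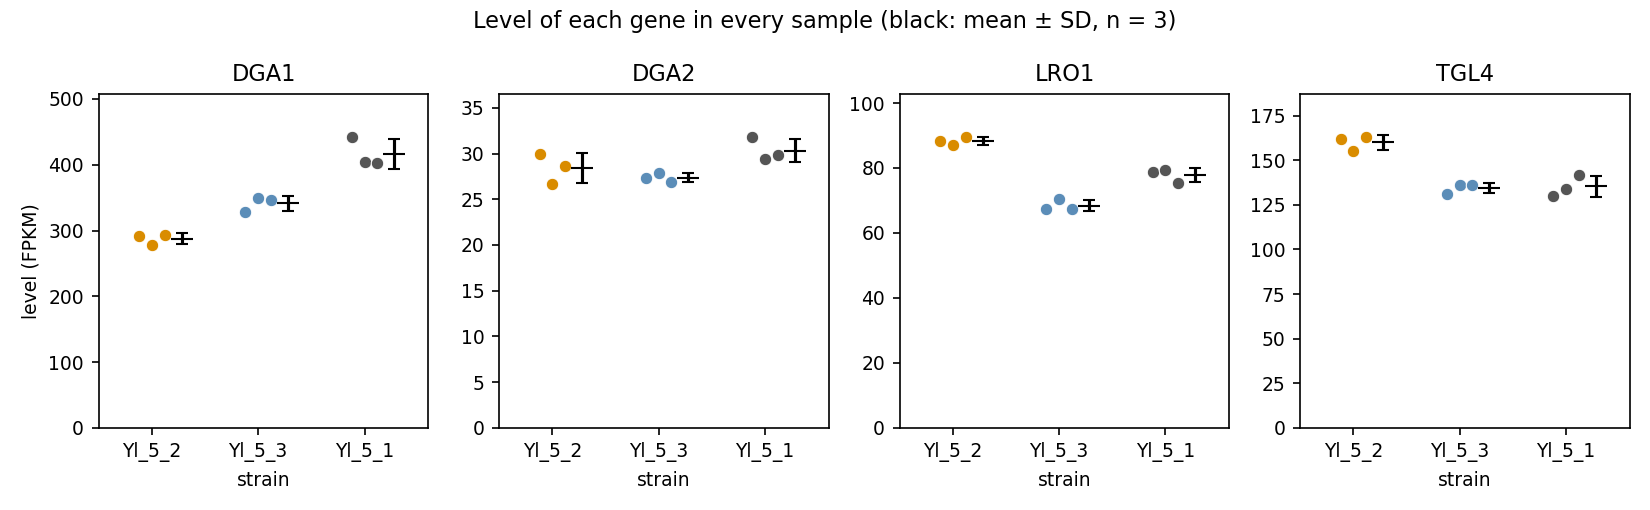
Level in FPKM (y axis, from 0) of DGA1, DGA2, LRO1 and TGL4, a panel each, in every sample of Yl_5_2, Yl_5_3 and Yl_5_1 (x axis); each dot is a sample and the black mark is the mean ± SD (n = 3). DGA1 stands at 278 to 293 FPKM in Yl_5_2, 328 to 350 in Yl_5_3 and 403 to 442 in Yl_5_1, and the 3 strains do not overlap.

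Against Yl_5_1, all 4 genes changed in Yl_5_2 at the adjusted threshold, where 57.4% of all features tested did. DGA1 and DGA2 fell and LRO1 and TGL4 rose, against 30.0% of all features that fell and 27.4% that rose. In Yl_5_3 the count was 2 of 4, DGA1 and LRO1, both lower and none higher, where 55.3% of all features changed, 29.7% being lower and 25.6% higher. On the TMM scale the samples of the strain and of Yl_5_1 did not overlap for 4 of 4 genes in Yl_5_2, beside 61.4% of all features, and for 3 of 4 in Yl_5_3, beside 63.3%. The largest of these changes was that of DGA1 in Yl_5_2. Disregarding sign, the median log2 fold change over the 4 genes was 0.168 in Yl_5_2 and 0.105 in Yl_5_3, beside 0.192 and 0.173 over all features tested. A stricter condition was also applied, a change past 2-fold and an adjusted p under 0.001. None of the 4 met it in any comparison, against 3.01% of features in Yl_5_2 and 3.98% in Yl_5_3. Both comparisons use the same 3 samples of Yl_5_1.

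The acyl-CoA-dependent enzymes come first. DGA1 codes for the diacylglycerol acyltransferase of the DGAT2 family. Its level was 291, 278 and 293 FPKM in Yl_5_2, 328, 350 and 346 FPKM in Yl_5_3, and 442, 404 and 403 FPKM in Yl_5_1. The strains are fully separated, with Yl_5_2 lowest and Yl_5_3 between it and the control. On the TMM scale DGA1 averaged 425 ± 8.45 CPM in Yl_5_2 and 643 ± 30.1 CPM in Yl_5_1 (SD, n = 3 each). It fell in Yl_5_2, with a log2 fold change of -0.60 (SE 0.04, edgeR adjusted p = 6.28e-09), or 0.66-fold. Only 118 of the 6037 features had a lower fitted fold change in this comparison. Disregarding sign, 8.81% of features changed by more. Every alternative scaling, filter and test tried, and each sample left out, kept it between -0.62 and -0.53.

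In Yl_5_3 DGA1 averaged 551 ± 19.6 CPM (SD, n = 3), against the 643 CPM of Yl_5_1. The log2 fold change was -0.22 (SE 0.04, edgeR adjusted p = 0.000316). This smaller fall lay within the bulk of the transcriptome, since 24.4% of features had a lower fold change. Between the mutant strains the gene was lower in Yl_5_2, with a log2 fold change of -0.38 against Yl_5_3 (95% interval -0.47 to -0.28, edgeR adjusted p = 7.88e-07). The falls in the mutant strains therefore differed in size by that test, as 67.4% of all features did. Scaled by total counts instead, that difference was -0.25.

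DGA2 codes for the acyltransferase of the DGAT1 family. It had 29.9, 26.7 and 28.6 FPKM in Yl_5_2, 27.3, 27.9 and 26.9 FPKM in Yl_5_3, and 31.8, 29.4 and 29.8 FPKM in Yl_5_1. On this scale Yl_5_2 overlaps with both other strains. On the TMM scale its mean was 43 ± 2.23 CPM in Yl_5_2, 45.2 ± 0.588 CPM in Yl_5_3 and 47.9 ± 1.7 CPM in Yl_5_1 (SD, n = 3 each). The fall in Yl_5_2 was small, with a log2 fold change of -0.16 (SE 0.05, edgeR adjusted p = 0.0151). It was not called with total counts (-0.10, adjusted p = 0.143), without Yl_5_1 replicate 1 (-0.13, adjusted p = 0.0736) or without Yl_5_2 replicate 2 (-0.12, adjusted p = 0.0878), all by edgeR.

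For DGA2 in Yl_5_3 the log2 fold change against Yl_5_1 was -0.09 (95% interval -0.20 to 0.02, edgeR adjusted p = 0.175). A level between 0.873 and 1.02 of that in the control fits this interval. With total counts the value was -0.15 and passed the threshold (edgeR adjusted p = 0.03). Between the mutant strains it was -0.07 (95% interval -0.19 to 0.04, edgeR adjusted p = 0.228), and 0.05 with total counts. The order of the mutant strains in DGA2 thus depended on the scaling, and neither value passed the test.

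**Figure D2:**
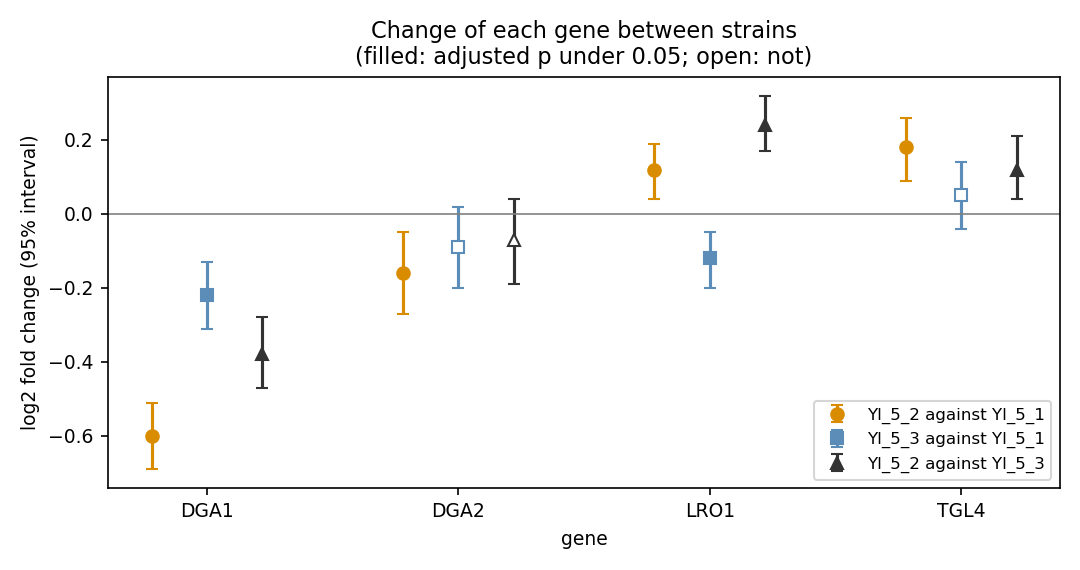
Log2 fold change (y axis) of DGA1, DGA2, LRO1 and TGL4 (x axis) in Yl_5_2 against Yl_5_1 (circles), Yl_5_3 against Yl_5_1 (squares) and Yl_5_2 against Yl_5_3 (triangles), with 95% intervals from edgeR; filled marks have an adjusted p under 0.05. DGA1 is below 0 in all 3, LRO1 is above 0 in Yl_5_2 (0.12) and below 0 in Yl_5_3 (-0.12), and the open marks are DGA2 and TGL4 in Yl_5_3 and DGA2 between the mutant strains.

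LRO1 codes for the phospholipid:diacylglycerol acyltransferase, the route that does not draw on acyl-CoA. Its level was 88.2, 87.1 and 89.5 FPKM in Yl_5_2, 67.3, 70.3 and 67.4 FPKM in Yl_5_3, and 78.8, 79.3 and 75.4 FPKM in Yl_5_1. No strain overlaps with another, and the control lies in the middle. The TMM-scaled means were 164 ± 0.674 CPM in Yl_5_2, 139 ± 3.14 CPM in Yl_5_3 and 152 ± 3.31 CPM in Yl_5_1 (SD, n = 3 each). LRO1 rose in Yl_5_2, with a log2 fold change of 0.12 (SE 0.04, edgeR adjusted p = 0.0103). It fell in Yl_5_3, with -0.12 (SE 0.04, edgeR adjusted p = 0.00794).

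LRO1 was the gene of the 4 that moved in opposite directions in the mutant strains. The direct comparison gave a log2 fold change of 0.24 in Yl_5_2 against Yl_5_3 (95% interval 0.17 to 0.32, edgeR adjusted p = 1.61e-05), or 18.3% on the linear scale. The size is modest beside other genes, as 52% of features differed by more between these strains. With total counts the difference was 0.37, and the values against Yl_5_1 were 0.18 in Yl_5_2 and -0.19 in Yl_5_3. Under DESeq2's Wald test the fall in Yl_5_3 was -0.10 and missed the threshold (adjusted p = 0.0616).

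TGL4, on the side of breakdown, had 162, 155 and 163 FPKM in Yl_5_2, 131, 136 and 136 FPKM in Yl_5_3, and 130, 134 and 142 FPKM in Yl_5_1. Yl_5_2 stood above every sample of both other strains, which overlapped. In TMM-scaled counts it averaged 375 ± 7.04 CPM in Yl_5_2, 344 ± 7.92 CPM in Yl_5_3 and 332 ± 16.9 CPM in Yl_5_1 (SD, n = 3 each). The rise in Yl_5_2 had a log2 fold change of 0.18 (SE 0.04, edgeR adjusted p = 0.00156), which is 12.9% on the linear scale. It stayed between 0.14 and 0.24 under every alternative tried. Of all features tested, 26.5% had a higher fold change.

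In Yl_5_3 the log2 fold change of TGL4 was 0.05 (95% interval -0.04 to 0.14, edgeR adjusted p = 0.31). Its sign turned with total counts (-0.01), and without Yl_5_1 replicate 3 it was 0.10 and just passed (edgeR adjusted p = 0.0487). Between the mutant strains TGL4 was higher in Yl_5_2, with a log2 fold change of 0.12 against Yl_5_3 (95% interval 0.04 to 0.21, edgeR adjusted p = 0.013), and 0.25 with total counts. That call was lost without Yl_5_2 replicate 1 (adjusted p = 0.0519) or without Yl_5_3 replicate 1 (adjusted p = 0.054), both by edgeR with a log2 fold change of 0.11.

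**Figure D3:**
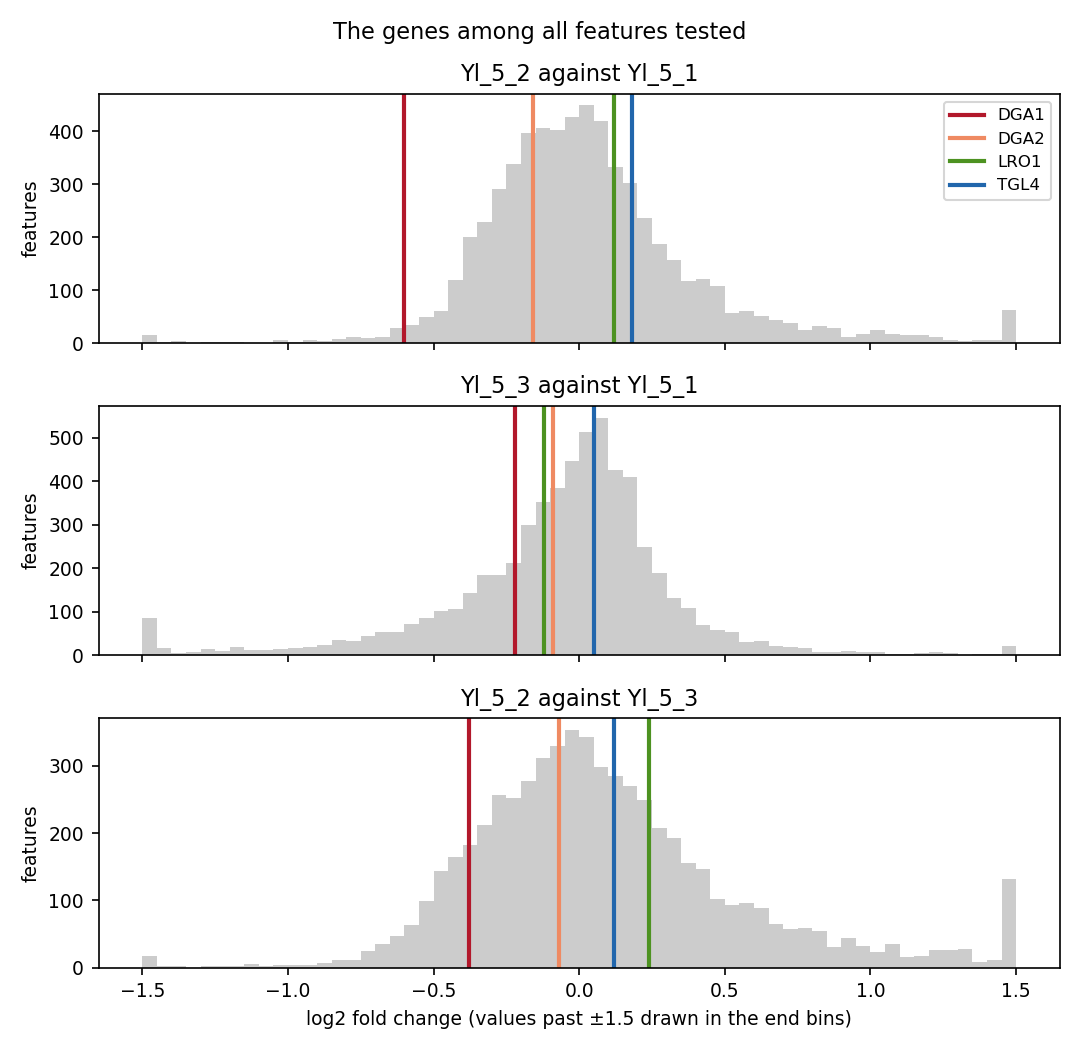
Number of features (y axis) by log2 fold change (x axis, bins of 0.05, extreme values drawn in the end bins) for the 6037 features tested in each of the 3 comparisons, with a colored line at each of the 4 genes. DGA1 in Yl_5_2 against Yl_5_1 (-0.60) lies at the lower edge, with 118 features below it, while DGA2, LRO1 and TGL4 lie inside the bulk in every panel.

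The direct comparison of Yl_5_2 with Yl_5_3 called 3 of the 4 genes, DGA1 lower and LRO1 and TGL4 higher in Yl_5_2, beside 67.4% of all features (36.5% higher and 30.9% lower). The same 3 did not overlap, beside 72.1% of all features, and none of the 4 met the stricter condition, beside 5.75%. Their median log2 fold change was 0.03, the same as over all features tested. The scaling mattered most here. With total counts the median of all features was 0.16, a shift of all genes that also carried the 4 genes upward.

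Within a sample, the share that each gene holds of the summed level of the 3 acyltransferase genes does not depend on the scaling between libraries. DGA1 made up most of that sum, and its share was lower in Yl_5_2. It was 71.1, 70.9 and 71.3% in Yl_5_2, 77.6, 78.1 and 78.6% in Yl_5_3, and 80, 78.8 and 79.3% in Yl_5_1, all of counts per kilobase. The share of LRO1 was 21.6, 22.2 and 21.8% in Yl_5_2, 15.9, 15.7 and 15.3% in Yl_5_3, and 14.3, 15.5 and 14.9% in Yl_5_1. LRO1 thus held a larger part of the sum in every Yl_5_2 sample than in any other, whereas Yl_5_3 and Yl_5_1 overlapped. DGA2 held 7.03 ± 0.258% in Yl_5_2, 6.27 ± 0.185% in Yl_5_3 and 5.78 ± 0.0649% in Yl_5_1 (SD, n = 3 each), with no overlap. A larger share is not a higher level. Against Yl_5_1 the log2 fold change of DGA2 was -0.16 in Yl_5_2 and -0.09 in Yl_5_3. In Yl_5_2 that of LRO1 was 0.12 and that of DGA1, most of the sum, was -0.60.

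The difference in the DGA1 share was -8.24 percentage points in Yl_5_2 against Yl_5_1 and -1.26 in Yl_5_3 against Yl_5_1. For LRO1 these differences were 7 and 0.782 points, the second being 0.478 without Yl_5_1 replicate 1. The exact two-sided permutation test cannot give a p below 0.1 with 3 samples against 3, and it gave 0.1 for 8 of the 9 comparisons of shares (adjusted p = 0.113) and 0.2 for LRO1 in Yl_5_3 against Yl_5_1. The 9 comparisons are not independent of each other, because the shares make up a whole. Expressed as a ratio of levels, the DGA1 level was 3.25 ± 0.0567-fold that of LRO1 in Yl_5_2, 4.99 ± 0.135-fold in Yl_5_3 and 5.35 ± 0.261-fold in Yl_5_1 (SD, n = 3 each). It was 10.1 ± 0.359-fold that of DGA2 in Yl_5_2, 12.5 ± 0.442-fold in Yl_5_3 and 13.7 ± 0.19-fold in Yl_5_1. The sum itself was 404 ± 10.8 FPKM in Yl_5_2, 437 ± 13 FPKM in Yl_5_3 and 524 ± 24.7 FPKM in Yl_5_1. Unlike the shares, this sum depends on the scaling between libraries, and FPKM is scaled by total counts. On that scale DGA1 differed less between the mutant strains (log2 fold change -0.25) than with TMM (-0.38).

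**Figure D4:**
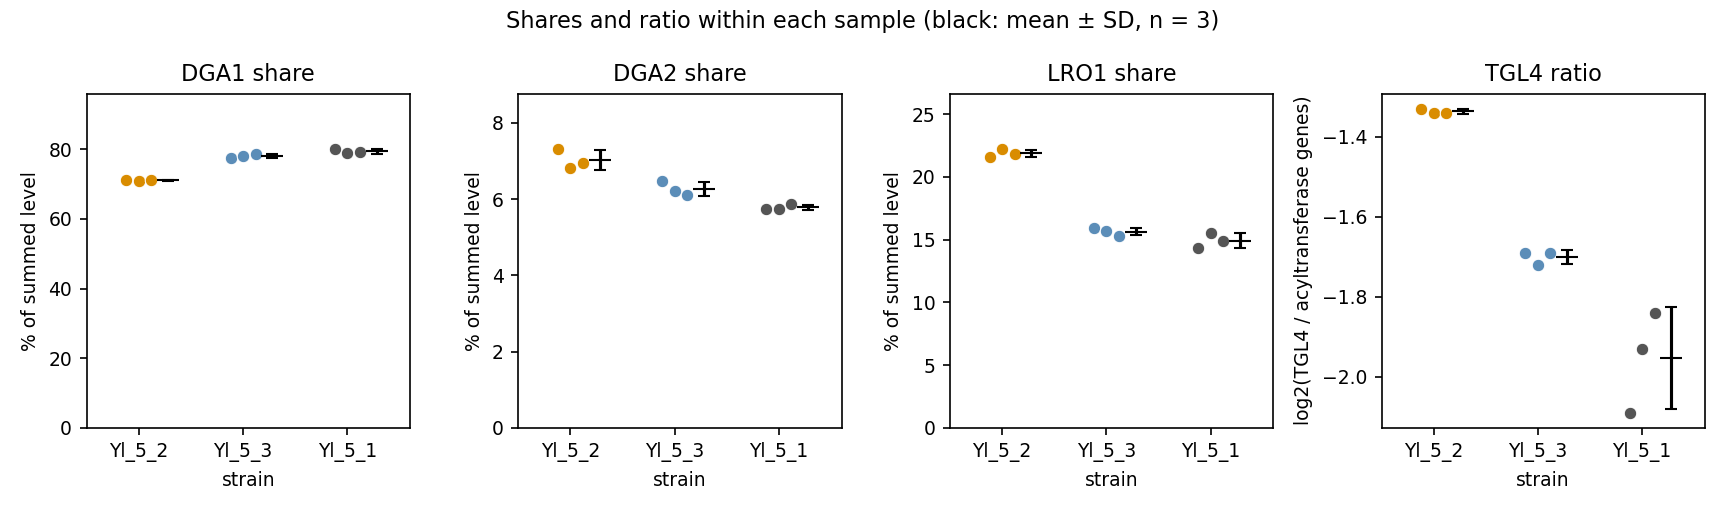
Share of DGA1, DGA2 and LRO1 in the summed level of the 3 genes (y axes in percent, from 0) and log2 ratio of TGL4 to that sum (right panel, y axis not from 0), in each sample of Yl_5_2, Yl_5_3 and Yl_5_1; dots are samples and black marks the mean ± SD (n = 3). DGA1 holds 71.1% in Yl_5_2 against 78.1% in Yl_5_3 and 79.4% in Yl_5_1 on average, and the TGL4 ratio is highest in Yl_5_2.

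The lipase gene was set against the synthesis genes in the same way. The log2 ratio of the TGL4 level to the summed acyltransferase level was -1.33, -1.34 and -1.34 in Yl_5_2, -1.69, -1.72 and -1.69 in Yl_5_3, and -2.09, -1.93 and -1.84 in Yl_5_1. All samples of Yl_5_2 lay above all of Yl_5_3, and these above all of Yl_5_1. The difference was 0.62 on the log2 scale in Yl_5_2 against Yl_5_1 and 0.25 in Yl_5_3 against Yl_5_1, and 0.36 between Yl_5_2 and Yl_5_3 (exact two-sided permutation p = 0.1 for each of the 3, the smallest p the design allows, and 0.1 after adjustment). DGA1 made up most of the sum, and its own level was 1.8-fold that of TGL4 in Yl_5_2, 2.54-fold in Yl_5_3 and 3.08-fold in Yl_5_1. In Yl_5_3 against Yl_5_1, TGL4 itself was not called (log2 fold change 0.05, edgeR adjusted p = 0.31), while DGA1 fell (-0.22). Yl_5_1 spread the most, with replicate 1, its deepest sample, at -2.09, and with single samples left out the difference from it ran from 0.55 to 0.67 for Yl_5_2 and from 0.18 to 0.31 for Yl_5_3.

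Replicates of a strain differed by a few percent for these genes. The coefficient of variation of the TMM-scaled CPM was between 0.41% (LRO1 in Yl_5_2) and 5.19% (DGA2 in Yl_5_2), where counting error alone gives between 0.88% for DGA1 in Yl_5_1 and 3.5% for DGA2 in Yl_5_2. For comparison, features at least as abundant as the lowest of the 4 genes had a median coefficient of variation of 3.69% in Yl_5_2, 2.61% in Yl_5_3 and 3.6% in Yl_5_1. Above the median of their strain lay DGA2 in Yl_5_2, DGA1 in Yl_5_3 (3.56%), and DGA1 (4.68%) and TGL4 (5.09%) in Yl_5_1. The other values lay below it. The spread of LRO1 in Yl_5_2 and of DGA2 in Yl_5_3 (1.3%) was smaller than counting error alone gives (1.79% and 3.44%).

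The feature whose pattern over the 9 samples was most like that of each gene was found by the root mean square difference of log2 CPM, each profile centered on its own mean. For DGA1 it was XM_505598.1, at a difference of 0.042 where the spread of DGA1 itself was 0.25, with log2 fold changes of -0.55 in Yl_5_2 and -0.16 in Yl_5_3. For TGL4 it was XM_502745.1, at 0.026 and with fold changes of 0.17 and 0.05. The closest to DGA2 was XM_500569.1, at 0.03, and the closest to LRO1 was XM_505422.1, at 0.02. The own spread was only 0.077 for DGA2, 0.1 for LRO1 and 0.084 for TGL4. A feature that did not change at all would thus lie within about 0.1 of these genes, but not of DGA1. Counts at that cutoff therefore do not show a shared pattern for DGA2, LRO1 and TGL4. Within 0.1 lay 51 features for DGA1, against 952 for DGA2, 745 for LRO1 and 770 for TGL4. The files give no names for these features.

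**Figure D5:**
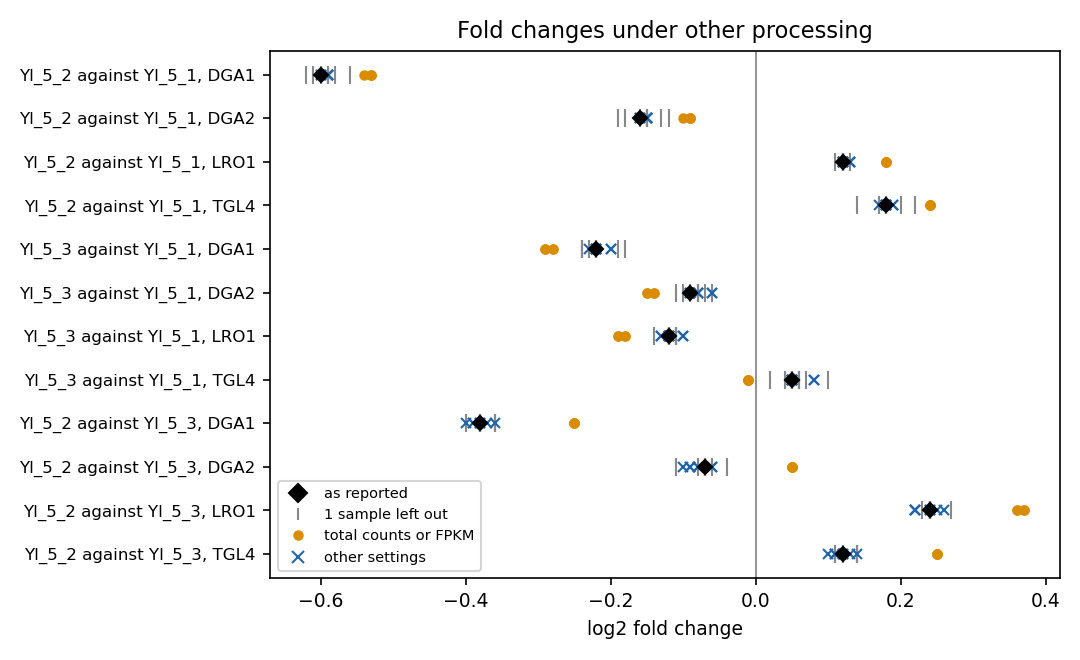
Log2 fold change (x axis) of each gene in each comparison (rows) as reported (diamonds), with 1 sample left out (bars), with total counts or FPKM in place of TMM-scaled counts (dots) and under other settings (crosses). DGA1 stays below 0 everywhere, from -0.62 to -0.53 in Yl_5_2, while TGL4 in Yl_5_3 and DGA2 between the mutant strains lie on both sides of 0.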

How the data were processed

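The authors deposited whole-number read counts of 6145 features and FPKM values of the same features. FPKM returned count divided by feature length and total count in all 6136 features with a count, so the FPKM the authors deposited carry no other scaling. The submitters' processing notes name HTSeq 0.6.1 and DESeq 1.18.0; aligner, genome build and strand setting are not given in the sources used here, so reads of overlapping or antisense genes cannot be told apart. The paper states that libraries were made with a NEBNext Ultra kit, and sequenced from both ends on an Illumina instrument. All columns of sample values were used.

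Counts were tested in R 4.3.3 with edgeR 4.0.16 (TMM, 1 term per strain, robust quasi-likelihood F test, Benjamini-Hochberg) over 6037 features, each reaching 10 counts in 3 or more samples. Standard errors came from the fold change and F statistic. Shares and ratios used counts per kilobase and exact permutation tests. Likeness used log2(CPM + 0.5). The pipeline was tested on simulated data with changes of 2-fold or more, planted in a small part of the features and in Yl_5_2 only. That test does not bear on changes as small as those of the 4 genes. Samples were grouped by their titles. Samples of a strain differed beyond counting noise (lowest chi-square per degree of freedom 3.34), so none was a copy of another. This check cannot tell separate cultures from separate libraries of the same culture. Alternatives were DESeq2 1.42.0, limma 3.58.1 on log2(FPKM + 1) or log2(FPKM + 0.1), other scalings and filters, fits of 6 samples, a replicate block and leaving out each sample.

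Named were the 4 genes, whatever their values, and the closest feature of each. Further genes of the pathway (GPD1, GUT1, GUT2, SCT1, SLC1, PAH1, ARE1, TGL3, LIP2) and Yl-SPT15 were not analysed here: of 5959 accessions, 5430 are in the RefSeq gene table of strain W29 (ASM176148v1), all 4 genes among them, but it holds neither names nor YALI0 identifiers. No sequences are printed. The genes and lists were chosen with earlier results of these data known.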

Additional observations from a re-analysis of the deposited data

Results flagged for a closer look

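For 3 of the 4 genes the effect against Yl_5_1 differed between the mutant strains, by the test of Yl_5_2 against Yl_5_3 in the same edgeR model (Benjamini-Hochberg adjustment over all features). The difference, Yl_5_2 minus Yl_5_3 on the log2 scale, was -0.38 for DGA1 (adjusted p = 7.88e-07), 0.24 for LRO1 (adjusted p = 1.61e-05) and 0.12 for TGL4 (adjusted p = 0.013). Each gene's samples did not overlap between the strains. Such a difference was common, since 67.4% of all features tested passed the same threshold and 72.1% did not overlap.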

How the results depend on the processing

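Over the 12 fold changes, 218 of 240 values under the alternatives kept their direction and their side of the threshold. The 240 include fits without a sample of the strain not compared, which hardly moved the fold changes. They also include limma fits nearly the same as each other, so the tally overstates the number of separate checks. With total counts DGA2 moved to -0.10 in Yl_5_2, no longer called, to -0.15 in Yl_5_3, now called, and to 0.05 between the mutant strains, reversed, and TGL4 in Yl_5_3 reversed to -0.01. The limma fits of FPKM, which carry the same scaling, gave -0.09 for DGA2 in Yl_5_2 (not called), -0.14 or -0.15 in Yl_5_3 (called) and 0.05 between the mutant strains, and -0.01 for TGL4 in Yl_5_3. DESeq2 gave -0.10 for LRO1 in Yl_5_3 (not called). With single samples left out, DGA2 in Yl_5_2 lay from -0.19 to -0.12, TGL4 in Yl_5_3 from 0.02 to 0.10, and TGL4 between the mutant strains from 0.11 to 0.14. Among called features, 61.7% were higher in Yl_5_2 against Yl_5_1 with total counts and 47.7% with TMM, 31.8% and 46.3% in Yl_5_3 against Yl_5_1, and 71.3% and 54.1% in Yl_5_2 against Yl_5_3. The raw counts without length left every share and ratio difference in its direction. The smallest exact p of 0.1 says nothing of their stability.

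Replicate numbers are shared by the strains, and whether same-numbered samples were handled together is not given. Only 1 of 9 same-numbered pairs had a correlation of deviations above 0.1 (range -0.155 to 0.149). Of the pairs with different numbers, 3 of 18 did (range -0.272 to 0.264). These values show no effect shared by number, but with so few samples they cannot exclude a pairing. A replicate block changed no call of the 4 genes (DGA1 -0.60 and -0.22, DGA2 -0.16 and -0.08, LRO1 0.12 and -0.12, TGL4 0.18 and 0.05 in Yl_5_2 and Yl_5_3), and called 3430 and 3264 features, against 3467 and 3338 without it. Depth limits DGA2 most, at 756 to 1170 counts per sample.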

Other observations

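Both genes that flank TGL4 in the W29 gene table were measured, a look chosen after the values were seen. The log2 fold changes in Yl_5_2 against Yl_5_1 were 0.20 (adjusted p = 0.00175) on the side of lower coordinates and -0.14 (adjusted p = 0.00994) on the other, beside 0.18 for TGL4 (edgeR, adjusted over all features). In Yl_5_3 against Yl_5_1 they were -0.07 and 0.07, and neither passed (adjusted p = 0.256 and 0.147, edgeR). The measured gene next to LRO1 had log2 fold changes of -0.04 in Yl_5_2 (adjusted p = 0.583) and -0.23 in Yl_5_3 (adjusted p = 0.00655, edgeR), beside 0.12 and -0.12 for LRO1. That next to DGA2 had 0.08 (adjusted p = 0.168) and -0.42 (adjusted p = 1.05e-06, edgeR), beside -0.16 and -0.09 for DGA2. The genes flanking DGA1, and those on the side of lower coordinates of DGA2 and LRO1, could not be paired with a tested feature. Whether these genes neighbour each other in the same way in the strains sequenced was not tested.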
